A study of Mus musculus with 6 samples.

Results

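The collagen genes of mouse white adipose tissue were followed in 6 RNA sequencing libraries, 3 from mice given ginsenoside Rb1 (a saponin from ginseng root) by intraperitoneal injection, 14 mg/kg daily, and 3 from mice given saline the same way (CTR). Collagen genes were taken as all genes of the deposited table whose symbol is Col, a number, the letter a and a number. Of 22040 genes in the table, 44 carried such a symbol, and the 36 with at least 10 counts in at least 3 of the 6 libraries were kept. By chain type, 10 of the 36 encode fibrillar collagens, 6 encode the type IV chains of basement membranes and 20 encode other types. The labels used here do not state fat depot, strain, sex, age, diet or how long mice were treated, and they do not say that each library is a different mouse. CTR replicate 2 stood apart by its skeletal muscle transcripts, and Rb1 replicate 1 by its collagen genes, so results are also given without them where they change. Library totals ranged from 15440339 to 24501446 counts in the Rb1 group and from 19125095 to 23509621 counts in the CTR group.

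Collagens are extracellular proteins in which 3 chains wind into a triple helix. Fibrillar collagens pack into the fibrils that give tissue its tensile strength, and type IV collagen forms the sheet-like network of the basement membrane that surrounds each adipocyte and lines the blood vessels of fat. Type VI collagen forms beaded filaments that link both and is abundant in fat, where excess collagen around adipocytes accompanies fibrosis in obesity. FACIT collagens, short for fibril-associated collagens with interrupted triple helices, sit on the surface of fibrils, and the multiplexins, of types XV and XVIII, sit where basement membrane meets the surrounding matrix.

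The type IV genes lie head to head in pairs, and the most abundant pair, Col4a1 and Col4a2, shares its promoter region. On GRCm38, Col4a1 occupies chromosome 8 from 11198423 to 11312826 on the minus strand and Col4a2 occupies 11312805 to 11449287 on the plus strand, so their annotated first exons overlap. The RefSeq promoter windows, 250 bases before to 50 bases after the annotated start, are shown for both because these genes carry most of the basement membrane signal and share 78 bases of window. The window of Col1a2, a chain of the main fibrillar collagen, is shown beside them. Each reads 5′ to 3′ on the strand of its gene, with capitals marking matches, on either strand, to the CCAAT box, to the GGGCGG box and to the TATAAA box (GRCm38.p6, Col4a1 at chr8:11312777-11313076 minus, Col4a2 at chr8:11312555-11312854 plus, Col1a2 at chr6:4505368-4505667 plus).
Col4a1: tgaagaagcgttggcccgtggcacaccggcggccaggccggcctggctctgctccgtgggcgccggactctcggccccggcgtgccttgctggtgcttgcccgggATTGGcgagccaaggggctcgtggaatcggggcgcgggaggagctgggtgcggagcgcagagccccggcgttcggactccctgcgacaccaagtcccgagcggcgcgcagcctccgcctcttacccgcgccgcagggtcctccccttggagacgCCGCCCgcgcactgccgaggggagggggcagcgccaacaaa
Col4a2: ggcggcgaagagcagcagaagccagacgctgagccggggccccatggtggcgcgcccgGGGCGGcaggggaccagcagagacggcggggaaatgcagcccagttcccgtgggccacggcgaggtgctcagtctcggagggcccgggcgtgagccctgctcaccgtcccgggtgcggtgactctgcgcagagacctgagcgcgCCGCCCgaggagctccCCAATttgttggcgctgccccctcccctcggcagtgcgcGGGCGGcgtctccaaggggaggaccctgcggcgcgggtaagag
Col1a2: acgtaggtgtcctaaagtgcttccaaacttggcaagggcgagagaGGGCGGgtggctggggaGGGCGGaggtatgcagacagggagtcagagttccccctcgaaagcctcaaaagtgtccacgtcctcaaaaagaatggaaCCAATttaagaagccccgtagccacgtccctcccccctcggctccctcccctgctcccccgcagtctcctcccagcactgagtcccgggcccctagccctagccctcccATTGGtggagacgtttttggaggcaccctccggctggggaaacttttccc
A GGGCGG match whose first base in the window lies 9 bases after the Col4a1 start is the same stretch as the match that begins 7 bases after the Col4a2 start on the other strand. None of the 3 windows held TATAAA, and each held CCAAT on at least 1 strand. The Col1a2 window lies inside the annotated span of that gene, which begins at 4504814. Its RefSeq start therefore differs from the start of that span, and bases outside the window were not searched. RefSeq windows matched 29 of the 36 genes with 31 windows, all but Col1a1, Col5a2, Col4a3, Col12a1, Col14a1, Col9a3 and Col26a1. GGGCGG stood in 64.5% of the collagen windows, against 35.7% of all 32851 windows of that length. CCAAT stood in 32.3%, against 37.4% of all windows, and TATAAA in 12.9%, against 13.6%. A match is a description of letters and no site or cause.

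Collagen transcripts were a sizeable part of the tissue's RNA and differed more among the Rb1 libraries than between the groups. The 36 genes took 0.823% of counts in Rb1 replicate 1 (exact Clopper-Pearson 95% interval 0.819 to 0.827), 1.599% in Rb1 replicate 2 (1.592 to 1.605) and 1.463% in Rb1 replicate 3 (1.458 to 1.468). In CTR replicates 1, 2 and 3 they took 1.206% (1.201 to 1.211), 1.189% (1.185 to 1.193) and 1.35% (1.345 to 1.355). The 3 CTR libraries thus lay inside the range of the Rb1 libraries, between Rb1 replicate 1 at the low end and Rb1 replicates 2 and 3 at the high end. These intervals cover counting error only. In bulk tissue, fewer cells of a type and less RNA per cell cannot be told apart.

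None of the 36 collagen genes differed between Rb1 and CTR after adjustment over all 14093 genes tested (edgeR quasi-likelihood test with Benjamini-Hochberg adjustment, threshold 0.05), and DESeq2 called none. The background rate of calls was low in edgeR, at 0.0071% of genes (1 gene), and 2.79% in DESeq2. The lowest adjusted p among the 36 was 0.309 in edgeR and 0.159 in DESeq2, both for Col16a1. At an unadjusted p under 0.05, 0 collagen genes were higher and 1 was lower, where the background was 4.01% higher and 7.54% lower. Log2 fold changes were positive for 19 genes (51.3% of all genes tested were positive) and negative for 17, with a median of 0.024 against 0.0069 over all genes tested. The adjusted p does not show that levels were equal, since among members with a mean of at least 10 FPKM the SE ran from 0.18 for Col4a2 to 0.40 for Col14a1.

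**Figure D1:**
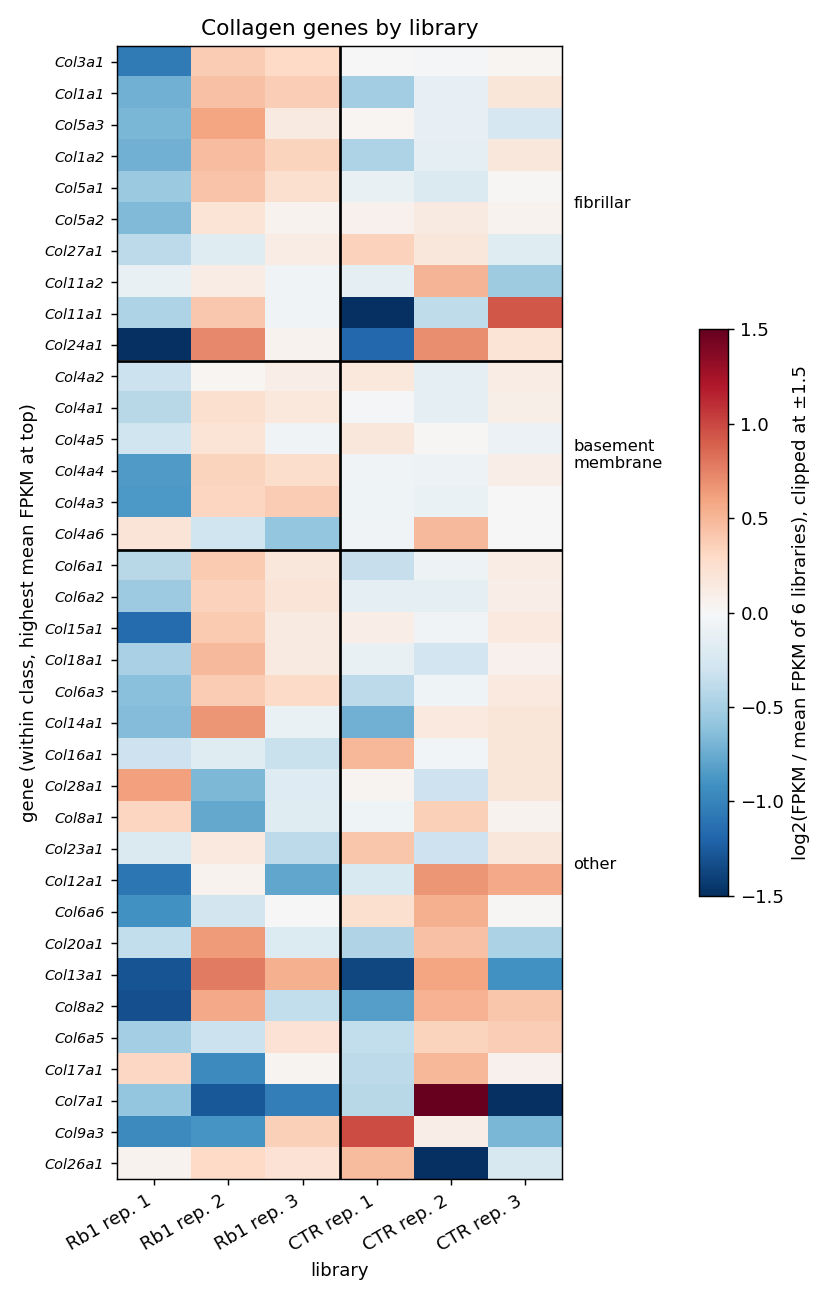
FPKM of each of the 36 collagen genes in each library relative to the gene's mean over the 6 libraries, on a log2 scale clipped at 1.5 in either direction (rows: genes by class, columns: the Rb1 libraries on the left and the CTR libraries on the right). Rb1 replicate 1 was the lowest of the 6 libraries for 23 genes, and Rb1 replicate 2 was the highest for 19.

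Rb1 replicate 1 had the lowest summed collagen level, 961.1 FPKM, against 1347 to 1806 FPKM in the other 5 libraries. The distance differed by gene. CTR replicate 1 was nearly as low for Col6a1 (108 against 103 FPKM) and lower for Col14a1 (6.92 against 7.26 FPKM). For Col3a1 it was far above (233 against 112 FPKM). Rb1 replicate 1 was the lowest library for 23 of the 36 genes, where 12.4% of all genes tested had their lowest value in it. Rb1 replicate 2 was the highest for 19, where the background was 14%. Among the 14 collagen genes with a mean of at least 10 FPKM (counts scaled by gene length and library total, as the authors computed it), a band chosen after the values were seen, Rb1 replicate 1 was lowest for 13 and Rb1 replicate 2 highest for 13. Without CTR replicate 2, a library rich in skeletal muscle transcripts, Rb1 replicate 1 was still lowest for 23 of the 36, against a background of 13.9%. With the TMM factors of edgeR applied it was lowest for 24, against 18.2%. Counts of this kind describe genes measured in the same libraries, which are not independent of each other.

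The fibrillar genes had a median log2 fold change of 0.052 over 10 genes, 7 positive and 3 negative. Their summed level was 320.5, 761.7 and 687.3 FPKM in Rb1 replicates 1, 2 and 3, and 516.4, 539.7 and 585.8 FPKM in CTR replicates 1, 2 and 3. Rb1 replicate 1 fell below every CTR library and the other Rb1 libraries lay above every CTR library, so the groups overlapped. Without Rb1 replicate 1 the fibrillar median was 0.39, with 9 of 10 positive, and no gene passed the adjusted threshold. Without Rb1 replicate 2 it was -0.13, and without CTR replicate 1 it was -0.018, so its sign depended on single libraries. Fibrillar genes made up 33.4, 42.2 and 41.6% of collagen FPKM in the Rb1 libraries and 37.6, 40.1 and 38.2% in the CTR libraries.

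Col3a1, which encodes the type III chain of fine, distensible fibrils (ENSMUSG00000026043, chromosome 1 from 45311538 to 45349706, plus strand), stood at 112, 306 and 288 FPKM in Rb1 replicates 1, 2 and 3, and at 233, 230 and 239 FPKM in CTR replicates 1, 2 and 3. The CTR values lay close together, with an SD of 4.83 FPKM, and the Rb1 values spread widely on both sides of them, with an SD of 107 FPKM (n = 3 each). The log2 fold change was 0.071 (SE 0.38, edgeR adjusted p = 0.968), and 0.43 (adjusted p = 0.330) without Rb1 replicate 1.

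Type I collagen, the main fibril of connective tissue, is built from the chains of Col1a1 and Col1a2. Col1a1 (ENSMUSG00000001506, chromosome 11 from 94936224 to 94953042, plus strand) stood at 67.0, 150 and 143 FPKM in the Rb1 libraries and at 76.7, 101.3 and 125 FPKM in the CTR libraries. Its log2 fold change was 0.30 (SE 0.36, edgeR adjusted p = 0.814). Col1a2 (ENSMUSG00000029661, chromosome 6 from 4504814 to 4541544, plus strand) stood at 37.6, 85.4 and 78.1 FPKM in the Rb1 libraries and at 45.2, 56.3 and 69.6 FPKM in the CTR libraries, a log2 fold change of 0.29 (SE 0.35, adjusted p = 0.820). For both genes the lowest library of each group was its replicate 1 and the groups overlapped.

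The type V chains, which control fibril diameter, had their lowest Rb1 value in replicate 1 and their highest in replicate 2. Col5a3, a type V chain found in fat and muscle, stood at 45.2, 110 and 79.7 FPKM in the Rb1 libraries and at 74.6, 66.9 and 61.1 FPKM in the CTR libraries (log2 fold change 0.28, SE 0.32, edgeR adjusted p = 0.807). Col5a1 had a log2 fold change of 0.25 and Col5a2 one of -0.12. The remaining fibrillar genes were scarce, with Col27a1 at a mean of 0.679 FPKM and Col11a2, Col11a1 and Col24a1, whose chains belong mostly to cartilage and bone fibrils, at 0.0490 to 0.183 FPKM. Col2a1, the cartilage fibril gene, did not reach the count minimum, with 0 to 4 counts in a library.

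**Figure D2:**
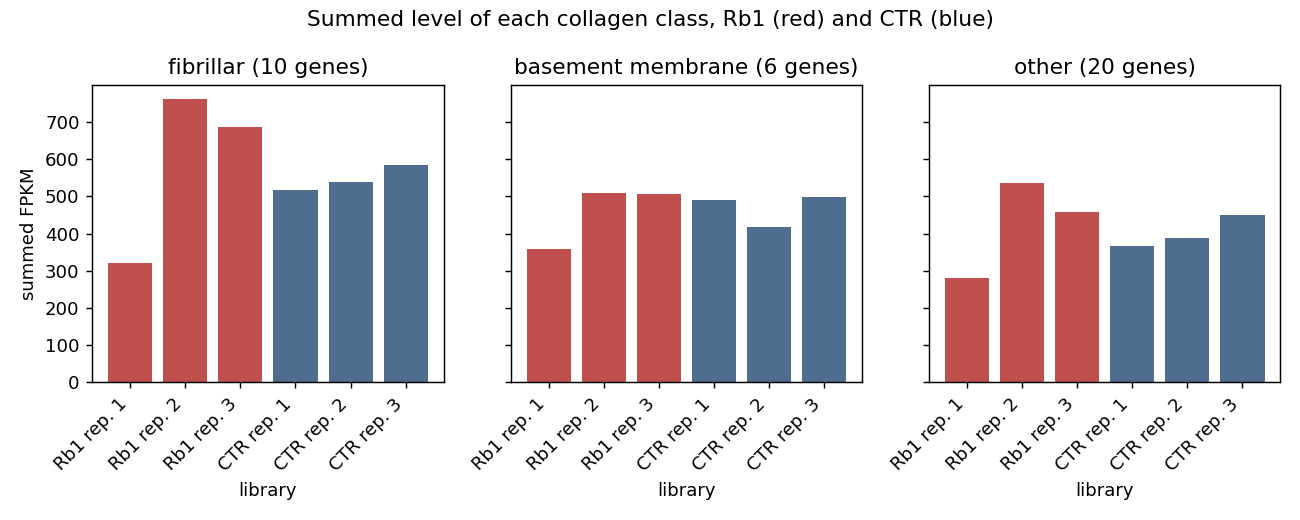
Summed FPKM of the fibrillar (10 genes), basement membrane (6 genes) and other (20 genes) collagens in each library, with the Rb1 libraries on the left of each panel and the CTR libraries on the right. In all 3 classes Rb1 replicate 1 was the lowest library, and Rb1 replicate 2 was the highest.

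The summed basement membrane genes spanned less between libraries than the other classes. Their summed level was 359.7, 508.3 and 505.4 FPKM in Rb1 replicates 1, 2 and 3, and 491.0, 419.0 and 497.2 FPKM in CTR replicates 1, 2 and 3. The ranges of the groups overlapped, with Rb1 replicate 1 the lowest of the 6. The median log2 fold change of the 6 genes was 0.027. It was 0.21 without Rb1 replicate 1, -0.13 without Rb1 replicate 2 and -0.075 without Rb1 replicate 3.

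Col4a1 and Col4a2 encode the ubiquitous type IV network. Col4a1 (ENSMUSG00000031502) stood at 156, 247 and 232 FPKM in the Rb1 libraries and at 206, 189 and 222 FPKM in the CTR libraries, a log2 fold change of 0.092 (SE 0.22, edgeR adjusted p = 0.915). Col4a2 (ENSMUSG00000031503) stood at 201, 257 and 269 FPKM in the Rb1 libraries and at 281, 226 and 271 FPKM in the CTR libraries, a log2 fold change of -0.046 (SE 0.18, adjusted p = 0.952). The 2 genes stood at similar levels in every library. Their first exons overlap, and reads there are uncertain between them, because no source used here states whether counting used strand.

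The other head to head pairs stood far lower. Col4a3 and Col4a4, chains known from the kidney's filtration barrier, were at means of 0.542 and 1.37 FPKM, and Col4a4 was at 0.762, 1.73 and 1.64 FPKM in the Rb1 libraries, against 1.31, 1.30 and 1.47 FPKM in the CTR libraries. The log2 fold change of Col4a4 was 0.076 (SE 0.33, edgeR adjusted p = 0.957). On the X chromosome, Col4a5 stood at 1.33, 1.88 and 1.57 FPKM in the Rb1 libraries and at 1.84, 1.65 and 1.53 FPKM in the CTR libraries (log2 fold change -0.022, SE 0.18, adjusted p = 0.981). Its neighbour Col4a6 was at a mean of 0.126 FPKM, with 13 to 34 counts in a library, so this pair was not matched in level.

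The 20 other collagens had a median log2 fold change of -0.12, with 9 positive and 11 negative. Leaving out Rb1 replicate 1 gave -0.017, leaving out Rb1 replicate 2 gave -0.20, and leaving out CTR replicate 2 gave -0.042. Their summed level was 280.9, 535.8 and 458.1 FPKM in Rb1 replicates 1, 2 and 3, and 367.6, 388.1 and 449.1 FPKM in CTR replicates 1, 2 and 3. The abundant members followed the fibrillar pattern, with Rb1 replicate 1 low and Rb1 replicate 2 high, while several scarce members did not.

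Type VI collagen led this class. Col6a1 stood at 103, 181 and 155 FPKM in the Rb1 libraries and at 108, 131 and 150 FPKM in the CTR libraries (log2 fold change 0.23, SE 0.26, edgeR adjusted p = 0.805). Col6a2 stood at 58.1, 108 and 96.8 FPKM in the Rb1 libraries and at 77.1, 76.6 and 90.9 FPKM in the CTR libraries (log2 fold change 0.16, SE 0.26, adjusted p = 0.872). Col6a3, whose chain is the source of the adipose fragment endotrophin, was at a mean of 36.2 FPKM with a log2 fold change of 0.22. In each of these genes Rb1 replicate 1 was the lowest library and Rb1 replicate 2 the highest.

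The multiplexins mark the basement membrane zone. Col15a1 stood at 32.3, 94.7 and 79.0 FPKM in the Rb1 libraries and at 76.8, 69.3 and 79.3 FPKM in the CTR libraries, a log2 fold change of -0.065 (SE 0.39, edgeR adjusted p = 0.972). Of the genes with a mean of at least 10 FPKM it had the widest range, 2.94-fold between the highest and the lowest library. Col18a1, the source of endostatin, stood at 35.1, 68.7 and 54.0 FPKM in the Rb1 libraries and at 45.6, 40.4 and 51.6 FPKM in the CTR libraries (log2 fold change 0.25, SE 0.27, adjusted p = 0.791).

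Groups did not overlap for 2 of the 36 genes, both lower with Rb1, where 10.5% of all genes tested were lower without overlap and 5.48% higher. Col16a1, a FACIT collagen (ENSMUSG00000040690, chromosome 4 from 130047840 to 130099283, plus strand), stood at 5.84, 6.36 and 5.74 FPKM in the Rb1 libraries and at 10.2, 6.98 and 8.18 FPKM in the CTR libraries. The Rb1 values lay close together and below all CTR values, and the log2 fold change was -0.45 (SE 0.14, edgeR adjusted p = 0.309). Leaving out 1 library moved it between -0.56 and -0.33. Col6a6, a rarer type VI chain (ENSMUSG00000043719, chromosome 9 from 105687809 to 105828160, minus strand), stood at 0.478, 0.746 and 0.905 FPKM in the Rb1 libraries and at 1.06, 1.30 and 0.910 FPKM in the CTR libraries. The highest Rb1 value and the lowest CTR value were almost equal, and the log2 fold change was -0.56 (SE 0.28, adjusted p = 0.513). Overlap was judged throughout on counts scaled by the library total, without the TMM factors used in the test. Those factors were 0.9584 in Rb1 replicate 3 and 0.9837 in CTR replicate 3. Scaling by them reverses the order of these 2 Col6a6 values, so its groups then overlap. With 2 of 36, the share without overlap was below the background.

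A few other members are given because their libraries ran differently, a choice made after their values were seen. Col12a1, a FACIT gene, stood at 1.03, 2.25 and 1.27 FPKM in the Rb1 libraries and at 1.86, 3.44 and 3.22 FPKM in the CTR libraries, a log2 fold change of -0.86 (SE 0.37, edgeR adjusted p = 0.445). Col28a1, known from peripheral nerve, was highest in Rb1 replicate 1, at 6.25 FPKM, against 2.56 and 3.58 FPKM in Rb1 replicates 2 and 3 and 4.20, 3.30 and 4.65 FPKM in the CTR libraries. Col8a1, a short-chain network collagen of vessel walls, stood at 4.81, 2.27 and 3.40 FPKM in the Rb1 libraries and at 3.69, 4.91 and 4.01 FPKM in the CTR libraries. In both genes Rb1 replicate 2 was the lowest library, the reverse of the abundant collagens. Col7a1, the anchoring fibril gene of skin, had 98 counts in CTR replicate 2 and 8 to 18 counts in the other libraries. Its log2 fold change of -1.46 (adjusted p = 0.547) was -0.013 without CTR replicate 2.

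The remaining kept genes of this class, Col14a1, Col23a1, Col20a1, Col13a1, Col8a2, Col6a5, Col17a1, Col9a3 and Col26a1, had log2 fold changes between -0.52 and 0.58. Of them Col14a1, a FACIT gene, was the most abundant at a mean of 11.4 FPKM, Col23a1, a transmembrane collagen, was at 2.51 FPKM, and the others were at 0.0488 to 0.296 FPKM. The 7 of this class below the count minimum, Col10a1, Col9a1, Col9a2, Col19a1, Col22a1, Col25a1 and Col6a4, reached at most 18 counts in any library.

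**Figure D3:**
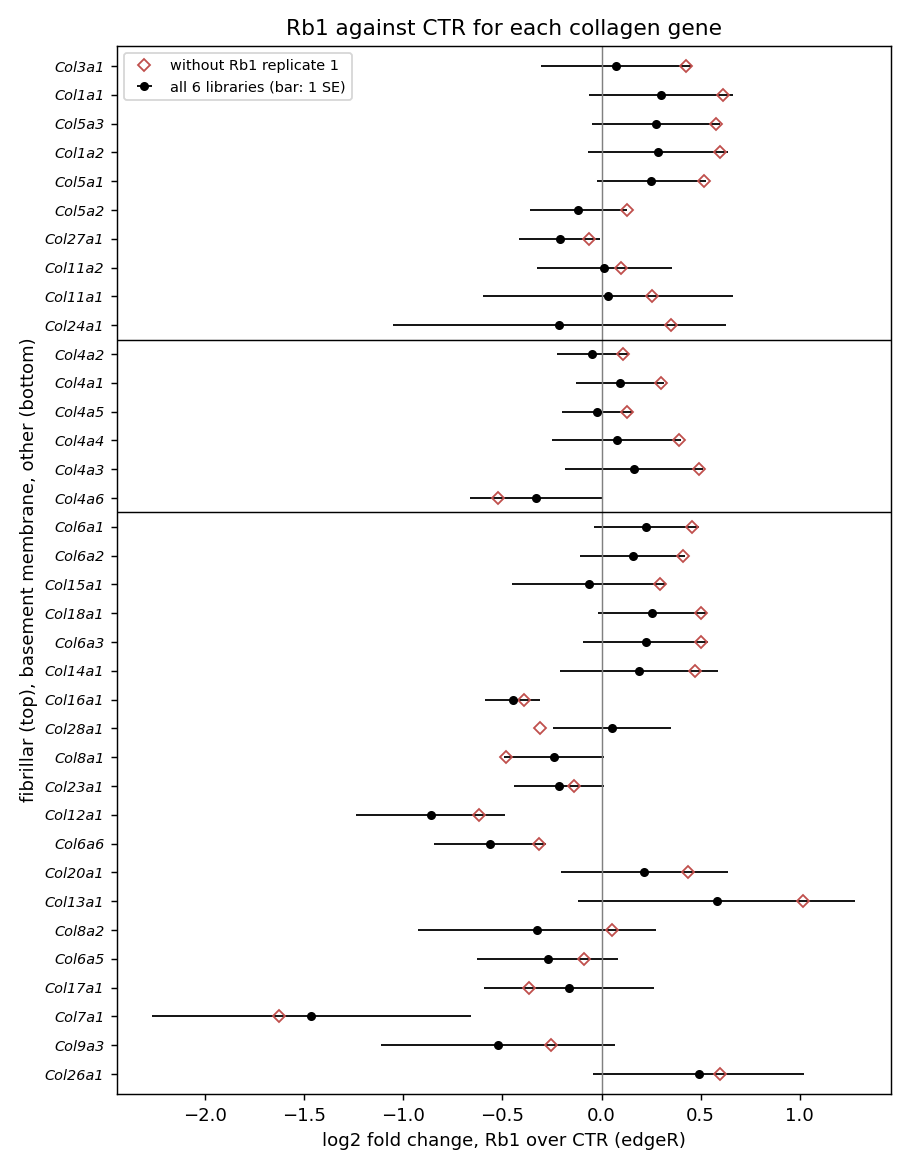
Log2 fold change of each collagen gene, Rb1 over CTR, from edgeR with all 6 libraries (black points, bars of 1 SE) and without Rb1 replicate 1 (open red diamonds). Without that library, which was singled out for its low collagen values, 24 of 36 values were positive, against 19 of 36 with all libraries. All 14 genes with a mean of at least 10 FPKM were then positive.

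Leaving out Rb1 replicate 1 moved the abundant collagens together. This library was singled out because its collagen values were low, so a rise of these genes without it was built in. The shares over all genes given here are for scale and test nothing. Of the 36 genes, 24 were then positive, where 50.2% of all genes tested without it were positive, and 10 had an unadjusted p under 0.05 on the higher side, against a background of 4.53%. On the lower side 1 gene did, against 7.44%. None passed after adjustment, with a lowest adjusted p of 0.324, in a comparison of 2 Rb1 libraries with 3 CTR libraries that called 3 genes in all (0.021%). The 14 genes with a mean of at least 10 FPKM had a median of 0.46, against 0.21 with all libraries. The difference between the 2 settings is a description of 1 library, which has no replicate of its own.

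For some chains of the same molecule the ratio was steadier between libraries than the levels, and for others it was not. The count ratio of Col1a1 to Col1a2, which needs no gene length, was 0.762, 0.750 and 0.785 in Rb1 replicates 1, 2 and 3, and 0.727, 0.770 and 0.768 in CTR replicates 1, 2 and 3. It spanned 1.08-fold over the 6 libraries, while Col1a1 itself spanned 2.24-fold and Col1a2 2.27-fold. The ratio of Col4a2 to Col4a1 was 0.879, 0.710 and 0.790 in the Rb1 libraries and 0.928, 0.812 and 0.832 in the CTR libraries, a span of 1.31-fold that was close to the 1.40-fold of Col4a2 itself. Col4a3 to Col4a4 spanned 1.17-fold, where Col4a3 spanned 2.36-fold and Col4a4 2.27-fold. Col6a1 to Col6a2 spanned 1.26-fold and Col6a3 to Col6a2 1.28-fold, where these 3 genes spanned 1.75-fold to 2.01-fold. Col5a3 to Col5a2 spanned 1.63-fold, near the 1.81-fold of Col5a2. Col4a6 to Col4a5 spanned 2.02-fold, more than the 1.41-fold of Col4a5, with few counts for Col4a6. Across molecules, Col3a1 to Col1a1 lay between 2.59 and 4.71, a span of 1.81-fold, and Col1a1 to Col4a1 spanned 1.66-fold.

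Of 12 ratios computed, 2 did not overlap between the groups. Col5a1 to Col5a2, partners in type V collagen, stood at 1.17, 1.27 and 1.23 in the Rb1 libraries and at 0.962, 0.851 and 1.06 in the CTR libraries. Col15a1 to Col18a1 stood at 0.974, 1.46 and 1.55 in the Rb1 libraries and at 1.78, 1.82 and 1.63 in the CTR libraries. Both are given as values with no test. No background share was computed for ratios of other gene pairs, so nothing is read from the count of 2.

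**Figure D4:**
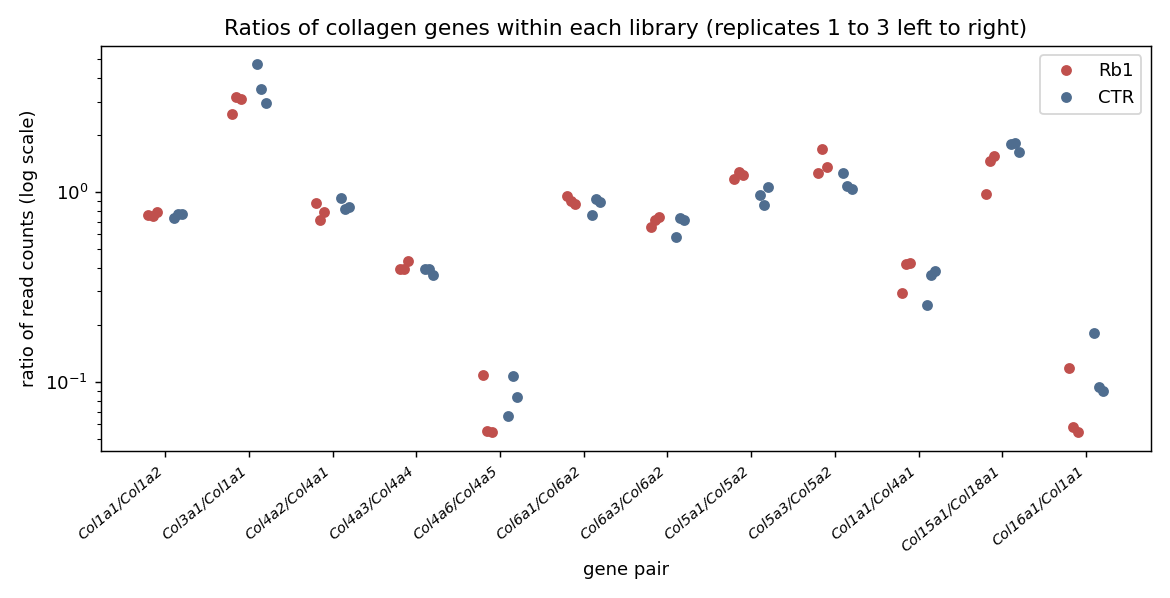
Ratios of read counts between pairs of collagen genes within each library, on a log axis (red: Rb1 libraries, blue: CTR libraries, replicates 1 to 3 from left to right within each colour). The Col1a1 to Col1a2 ratio lay between 0.727 and 0.785 in all 6 libraries, and the Col5a1 to Col5a2 and Col15a1 to Col18a1 ratios did not overlap between the groups. No background share was computed for such ratios.

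The order of levels between genes depended on gene length. The length implied by the deposited FPKM was 1.31 times the principal transcript of GENCODE M21 at the median of the 36 genes and up to 3.95 times. By deposited FPKM, Col4a2 led with 251.0 FPKM as the mean of 6 libraries, before Col3a1 (235), Col4a1 (209), Col6a1 (138) and Col1a1 (111). With principal transcript lengths, an alternative added after the data were seen, Col3a1 led with 453, before Col4a1 (318), Col4a2 (267), Col1a2 (188) and Col6a2 (181). The Col1a1 to Col1a2 ratio of mean levels was 1.78 by deposited FPKM and 0.687 by principal length, so even its direction turned on the length. The 13 highest genes were the same by either length. Comparisons of 1 gene between libraries do not involve the length.

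Genes that make and cross-link collagen shared part of the library pattern. Rb1 replicate 1 was lowest for 7 of 21 biosynthesis genes and 11 of 12 processing genes, against 12.4% of all genes tested. The pattern was not limited to such genes. That library was also lowest for 5 of 7 macrophage markers, and for 0 of 9 endothelial and 0 of 7 adipocyte markers. Serpinh1, Lox, Adamts2, Dpt, Ddr2 and Itgb1 are named here by their known roles, after their values were seen. The biosynthesis list (prolyl and lysyl hydroxylases, chaperones and glycosyltransferases of the endoplasmic reticulum) had a median log2 fold change of 0.088 over 21 genes, with 0 past the adjusted threshold in edgeR or DESeq2 and 1 higher and 1 lower at an unadjusted p under 0.05 (4.01% and 7.54% of all genes). Without Rb1 replicate 1 the median was 0.16. Those with the smallest p were P3h4 (log2 fold change 0.41, edgeR adjusted p = 0.410), which takes part in lysyl hydroxylation, the prolyl 3-hydroxylase gene P3h1 (-0.33, adjusted p = 0.424) and its partner Crtap (0.24, adjusted p = 0.483). Serpinh1, the collagen chaperone HSP47, stood at 47.1, 80.7 and 72.7 FPKM in the Rb1 libraries and at 60.9, 72.1 and 65.1 FPKM in the CTR libraries. The processing and cross-linking list had a median of -0.13 over 12 tested genes, with none called in edgeR or DESeq2 or at an unadjusted p under 0.05. Without Rb1 replicate 1 that median was 0.061, with 7 of 12 positive. Among those lowest in Rb1 replicate 1 were Lox, lysyl oxidase (36.0, 55.0 and 57.2 FPKM in the Rb1 libraries, 60.8, 48.1 and 58.1 FPKM in the CTR libraries), and Adamts2, the procollagen N-proteinase (16.5, 31.8 and 24.4 FPKM in the Rb1 libraries, 29.0, 23.6 and 29.8 FPKM in the CTR libraries). The list's smallest p values were those of the lysyl oxidase family genes Loxl2 (0.44, adjusted p = 0.527) and Loxl4 (-0.55, adjusted p = 0.647) and of Pcolce2, a procollagen proteinase enhancer (-0.31, adjusted p = 0.666).

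Proteins that coat or join fibrils gave a median of 0.14 over 17 genes, with none called in edgeR or DESeq2 and 1 lower at an unadjusted p under 0.05 (7.54% of all genes). Without Rb1 replicate 1 the median was 0.28, and without CTR replicate 2 it was 0.22. Lum, the gene with that p, the keratan sulphate proteoglycan lumican, had non-overlapping groups (29.1, 38.4 and 40.9 FPKM in the Rb1 libraries, 67.9, 49.7 and 42.2 FPKM in the CTR libraries, log2 fold change -0.50, edgeR adjusted p = 0.430). Of the 17 genes, 2 were lower without overlap, Lum and Sparc, where 10.5% of all genes tested were. Elastin (Eln, 0.31, adjusted p = 0.460) and periostin (Postn, 0.64, adjusted p = 0.482) were the next by p. Dermatopontin (Dpt), a fibril-associated protein, stood at 273, 718 and 746 FPKM in the Rb1 libraries and at 490, 648 and 540 FPKM in the CTR libraries, lowest in Rb1 replicate 1.

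Among collagen receptors, 3 of 10 were lower with Rb1 without overlap between the groups (10.5% of all genes were), although edgeR called none after adjustment. DESeq2 called all 3 lower, where it called 2.79% of all genes in either direction. The list's median log2 fold change was 0.14, and 0.086 without Rb1 replicate 1. Mrc2 (Endo180), the receptor through which stromal cells take up collagen for breakdown, stood at 18.8, 17.5 and 19.0 FPKM in the Rb1 libraries and at 39.8, 25.4 and 34.6 FPKM in the CTR libraries (log2 fold change -0.81, SE 0.16, edgeR adjusted p = 0.194, DESeq2 adjusted p = 0.001191). Ddr1, a receptor tyrosine kinase that binds collagen, stood at 5.32, 7.91 and 5.93 FPKM in the Rb1 libraries and at 11.7, 9.78 and 11.8 FPKM in the CTR libraries (-0.75, SE 0.19, edgeR adjusted p = 0.237, DESeq2 adjusted p = 0.0215). Lair1, an inhibitory collagen receptor of leukocytes, stood at 0.531, 0.386 and 0.386 FPKM in the Rb1 libraries and at 1.32, 1.45 and 0.715 FPKM in the CTR libraries (-1.37, SE 0.27, edgeR adjusted p = 0.184, DESeq2 adjusted p = 0.0006782). At an unadjusted edgeR p under 0.05, 3 receptors were lower with all libraries (7.54% of all genes were), and 3 were without Rb1 replicate 1 or without CTR replicate 2. All 7 macrophage markers also had negative log2 fold changes, and 5 were lower without overlap. Their summed level, carried mostly by Lyz2, was 503.9, 676.4 and 662.4 FPKM in Rb1 replicates 1, 2 and 3. In CTR replicates 1, 2 and 3 it was 915.8, 1011 and 772.3 FPKM. Within groups the receptors did not all follow this sum. In CTR replicate 2, Lair1 was the highest and Mrc2 and Ddr1 the lowest of the CTR libraries. In Rb1 replicate 1, Ddr1 was the lowest and Lair1 the highest of the Rb1 libraries. The part of macrophages in the receptor values was not tested. Ddr2, the fibroblast receptor for fibrillar collagen, and the integrin chain Itgb1 had log2 fold changes of 0.23 and 0.21.

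Basement membrane partners of type IV collagen had a median of 0.36 over 14 tested genes, 12 of them positive, against 0.027 for the type IV genes themselves. None passed in edgeR, and 3 were higher and 1 lower at an unadjusted p under 0.05, where 4.01% of all genes were higher and 7.54% lower. Without CTR replicate 2 the median was 0.22. Endothelial markers were also higher on average: all 9 had positive log2 fold changes, with a median of 0.26, and 3 were higher at an unadjusted p under 0.05. Of these Flt1 passed in DESeq2 (adjusted p = 0.0234), where 2.79% of all genes did, and none passed in edgeR. Within the Rb1 group the 2 lists ran apart. The 15 listed partners summed to 488.8, 588.7 and 548.4 FPKM in Rb1 replicates 1, 2 and 3. The endothelial markers summed to 606.6, 323.0 and 398.6 FPKM. Without Rb1 replicate 1 the partner median was 0.46 and the endothelial median was 0.070. The part of endothelial cells in the basement membrane values was not tested. Lamc3, a laminin gamma chain, stood at 5.52, 3.66 and 4.15 FPKM in the Rb1 libraries and at 2.31, 2.90 and 2.08 FPKM in the CTR libraries (log2 fold change 0.90, SE 0.18, edgeR adjusted p = 0.184, DESeq2 adjusted p = 0.0021). Lamb1, a laminin beta chain of vessel and fat basement membranes, stood at 27.6, 32.6 and 28.8 FPKM in the Rb1 libraries and at 19.0, 21.3 and 24.5 FPKM in the CTR libraries (0.50, edgeR adjusted p = 0.318, DESeq2 adjusted p = 0.108). Lamb3, a chain of epithelial laminin, stood at 1.62, 1.85 and 1.801 FPKM in the Rb1 libraries and at 2.72, 2.66 and 2.97 FPKM in the CTR libraries (-0.62, edgeR adjusted p = 0.201, DESeq2 adjusted p = 0.0161). In these 3 genes the groups did not overlap. Of the 14 tested, 4 were higher without overlap (Lamc3, Lamb1, Lama4 and Lamb2) and 1 was lower (Lamb3). Lamb2 stood at 46.2 FPKM in Rb1 replicate 3 and 45.8 FPKM in CTR replicate 3, and its groups overlap once TMM factors are applied. Over all genes tested, 5.48% were higher and 10.5% lower without overlap. DESeq2 called 1 of the list higher and 1 lower.

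**Figure D5:**
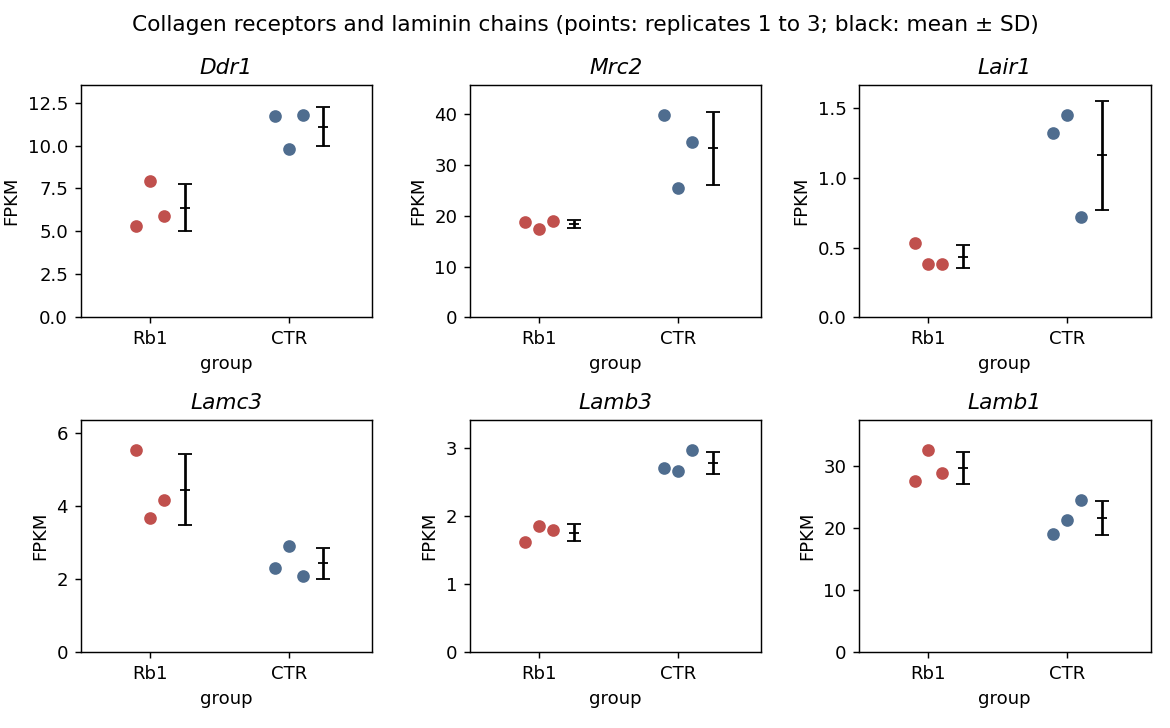
FPKM of 3 collagen receptors (Ddr1, Mrc2, Lair1) and 3 laminin chains (Lamc3, Lamb3, Lamb1), with Rb1 on the left and CTR on the right of each panel (points: replicates 1 to 3 from left to right, black: mean ± SD, n = 3). The groups did not overlap for any of the 6 genes, lower with Rb1 for the receptors and Lamb3 and higher for Lamc3 and Lamb1. Over all genes tested, 10.5% were lower and 5.48% higher without overlap.

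Regulators of fibrosis gave a median of -0.15 over 12 genes, none called in edgeR or DESeq2 and 2 lower at an unadjusted p under 0.05 (7.54% of all genes). Without CTR replicate 2 the median was -0.094. Tgfbr1, a TGF-beta receptor, had a log2 fold change of -0.32 (edgeR adjusted p = 0.286), and Ccn2, a TGF-beta target, one of -0.71 (edgeR adjusted p = 0.511).

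Cell type markers place the collagen values in their tissue. Of 7 adipocyte markers 5 had positive log2 fold changes, with a median of 0.32, and their summed level was 5464 to 5703 FPKM in the Rb1 libraries and 4570 to 5615 FPKM in the CTR libraries. Without overlap between the groups, 3 were higher (Pnpla2, Cfd and Lipe) and 1 was lower, where 5.48% of all genes tested were higher and 10.5% lower. None of the 7 passed the adjusted threshold in edgeR or DESeq2. The lower one, Adipoq, stood at 1275 to 1511 FPKM in the Rb1 libraries and 1513 to 1672 FPKM in the CTR libraries. Its groups overlap once TMM factors are applied. Of 10 fibroblast and progenitor markers, 6 were lowest in Rb1 replicate 1 and 8 highest in Rb1 replicate 2, although their summed level, carried by Gsn, was 3737 to 5145 FPKM in the Rb1 libraries and 2365 to 4114 FPKM in the CTR libraries. Summed over 9 endothelial markers, Rb1 replicate 1 stood highest, at 606.6 FPKM against 323.0 and 398.6 FPKM in the other Rb1 libraries and 339.1 to 400.6 FPKM in the CTR libraries. Skeletal muscle markers summed to 13.3 to 52.6 FPKM in the Rb1 libraries, and to 7945 FPKM in CTR replicate 2 and 132.4 and 127.0 FPKM in CTR replicates 1 and 3. The fibrillar and basement membrane medians without CTR replicate 2 were 0.21 and 0.0085. Cartilage and tendon markers summed to at most 1.04 FPKM in any library and epithelial markers to at most 1.70 FPKM, with Matn1, Krt5 and Krt14 at 0 counts in all 6. Schwann cell markers, of the cells where Col28a1 is known, summed to 19.9, 66.9 and 52.0 FPKM in the Rb1 libraries and 14.3, 45.2 and 111 FPKM in the CTR libraries. Smooth muscle and pericyte markers summed to 401 to 529 FPKM in the Rb1 libraries and 397 to 532 FPKM in the CTR libraries, lymphocyte markers to 1.29 to 4.46 and 2.17 to 5.07 FPKM, and mesothelial markers to 2.59 to 4.34 and 1.30 to 4.25 FPKM. The part of these cell types in the collagen values was not tested.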

How the data were processed

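Per the submitters' processing notes, CASAVA 1.8 and TopHat2 2.0.6 were used with mm10. No source used here names the counting tool, annotation release or strand setting. Raw counts per Ensembl gene and FPKM stand side by side in the deposited table, per the file headers. Symbols were matched to 21933 of 22040 identifiers. Deposited FPKM followed the count divided by 1 length per gene and by the library total, within 0.0182% for the kept collagens.

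Counts were tested with edgeR 4.0.16 (R 4.3.3): TMM, default filter (minimum count 10, minimum total 15), quasi-likelihood test, no covariates, Benjamini-Hochberg adjustment over 14093 genes, threshold 0.05. DESeq2 1.42.0 was an alternative. The scripts were tested on simulated data. The threshold of 3 counts for a value of 0 corresponds to 0.122 to 0.194 CPM, counts scaled by the library total. The p-values rest on the variation among these libraries alone, part of which may be technical.

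The collagen genes, chain classes, partner lists and markers were chosen with earlier results of these data known. Described in full were the 4 genes of highest mean FPKM in each class and those with an unadjusted p under 0.05 or non-overlapping groups, and up to 3 partner genes of each list by p, beside genes the text marks as chosen after their values were seen. Class medians carry no test. The values of 1 partner gene that the rule names are not reported here. Of the kept collagens, 10 share exon positions with another annotated gene in GENCODE M21, among them Col4a1, Col4a2, Col3a1, Col5a1, Col15a1 and Col6a6, and are uncertain to that extent.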

Additional observations from a re-analysis of the deposited data

How the results depend on the processing

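No collagen gene passed the adjusted threshold in edgeR or DESeq2, with another normalization, with no expression filter, with a replicate block, with the stricter count minimum or without any 1 library. Over all genes, edgeR called 1, DESeq2 called 390, and leaving out 1 library gave 1 to 4 (3, 4 and 2 without Rb1 replicates 1, 2 and 3). The class medians stayed within 1 SD of the spread between replicates (0.47 for fibrillar, 0.28 for basement membrane and 0.34 for other) under every alternative. That SD includes the library left out, so leaving out 1 library could hardly exceed it, and no stability is read from this. Leaving out 1 library moved the fibrillar median between -0.13 and 0.39, the basement membrane median between -0.13 and 0.21, and the other median between -0.20 and -0.017. Directions of single genes were not stable. Leaving out 1 library turned Col3a1 (-0.19 to 0.43), Col5a3 (-0.079 to 0.58), Col4a2 (-0.15 to 0.11), Col4a1 (-0.061 to 0.30), Col4a5 (-0.18 to 0.13), Col4a4 (-0.14 to 0.39), Col6a2 (-0.047 to 0.41), Col15a1 (-0.40 to 0.29) and Col18a1 (-0.016 to 0.50), and the cause was not tested. Leaving out 1 library kept the sign of Col1a1, Col1a2, Col6a1, Col16a1 and Col6a6. Titles number the replicates of both groups. Deviations of same-numbered samples from their group means correlated at 0.136, -0.109 and 0.018 for numbers 1, 2 and 3. Rb1 replicate 2 and CTR replicate 3 correlated at 0.262, so not every sample correlated best with its own number. Correlations over all genes cannot show whether same-numbered samples shared a batch, so pairing stays unknown. With the replicate block edgeR called 1 gene, the class medians were 0.12, -0.028 and -0.19, and Col3a1 (-0.075) and Col4a4 (-0.018) changed sign.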
